A study of Mus musculus with 7 samples.

Results

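B cells were the 840 cells that the authors' deposited cell table names B cells, 2.93% of 28644 cells under 23 annotations, and they were taken by that name alone. They came from immune cells of the tumour-bearing brain hemisphere of 7 mice aged 8 to 12 weeks, each given 50000 CT-2A cells, a mouse glioma line, by intracranial injection. In the 4 KO mice (labelled Siglece KO), Sall1CreERT2 x Siglecefl/fl, tamoxifen switches on a Cre recombinase made under the Sall1 gene, which among brain immune cells is active in microglia. The 3 WT mice carried the same floxed Siglece alleles without Cre, so the floxed alleles, the tumour and the tamoxifen (2.5 mg per injection from day 7, daily to day 21, then on alternate days) were common to both groups. Live CD45+ and/or CD11b+ cells were sorted after freezing and thawing, and each mouse gave 1 library of 5′ single-cell RNA sequencing.

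B cells carry an antibody as their antigen receptor, present antigen on MHC class II and, after activation, divide and can switch the constant region of the heavy chain from IgM and IgD to IgG, IgA or IgE. Some then become antibody-secreting plasmablasts and plasma cells, in which the factors Prdm1, Irf4 and Xbp1 enlarge the endoplasmic reticulum and the resting B-cell programme kept by Pax5 and Bach2 is turned off. B cells are rare in healthy brain tissue and enter tumours and inflamed brain from the blood and the meninges.

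The libraries held 1410 to 5856 cells. B cells had 1029 UMIs (unique molecular identifiers, 1 for each captured RNA molecule) or more, with a median of 7302 per cell, and 9494940 UMIs in all, of which 13.9% were in values that were not whole. There were 460 cell barcodes present in more than 1 library, and 31 B cells had such a barcode. Siglece, the deleted gene, was read at 17.5, 37.2 and 0 UMIs per 1000000 in the 10, 7 and 15 cells named Microglia of KO 1, KO 2 and KO 4 (KO 3 had none), and at 48.9, 51.4 and 14.6 in WT 1 to WT 3. These values rest on 18 UMIs or fewer per mouse and overlap between the genotypes, and which exons the floxed allele loses is not given in the sources used here, so they do not check the labels. In B cells Siglece gave 7 UMIs in all (2 in KO 3, 2 in WT 1 and 3 in WT 2) and Sall1 gave 0. Siglece was seen in 0.714% of B cells against 0.636% of CD4+ T cells annotated as naive or early activation (naive CD4+ T cells below), which were read at a lower median depth (2610 UMIs per cell).

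The B-cell name fitted the markers. Levels here are means over the 6 mice with at least 20 B cells, in UMIs per 1000000 of all UMIs (CPM), beside the highest mean among the 22 other annotations; the cells were annotated from these same RNA profiles, so the levels are a description. Cd79a, a signalling chain of the B-cell receptor (chr7:24897381-24902197, + strand, GRCm38), stood at 1147 ± 673 CPM (SD, n = 6) against 6.82 CPM in naive CD4+ T cells. Ms4a1, the surface protein CD20 (chr19:11249675-11266241, − strand), stood at 211 ± 145 CPM against 1.46 in cDC1 dendritic cells. Ighm, the constant region of IgM (chr12:113418558-113422730, − strand), stood at 564 CPM and was nearly as high, 521 CPM, in plasmacytoid dendritic cells (pDCs), so it separated B cells least of the 3.

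B cells were the highest of all 23 annotations for 241 of the 2519 genes they expressed at over 50 CPM. The 15 genes with the largest ratio to the next annotation were all immunoglobulin variable genes. Outside the immunoglobulin genes the order was led by Cd79a, Ms4a1, Pou2af1 (a co-activator of immunoglobulin transcription, 419.8 ± 124 CPM), Ebf1 (a factor of B-cell identity, 269 ± 236 CPM) and Jchain, the chain that joins IgM and IgA into polymers (6985 ± 4723 CPM against 113.5 in monocyte-derived dendritic cells). Further down the order stood Fcmr, an IgM Fc receptor (190.2 ± 181 CPM), Derl3, which moves misfolded proteins out of the endoplasmic reticulum, and Vpreb3, which binds heavy chains during their assembly. Both resting B-cell genes and secretory genes therefore stood among the leaders, and the spread between mice was widest, relative to the mean, for Fcmr and Ebf1 among those given here.

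By gene list, B cells held the highest level of 13 of 15 B-cell markers, 11 of 12 immunoglobulin constant genes, 11 of 17 plasma-cell genes and 6 of 12 follicular genes, but of only 2 of 13 MHC class II genes. Both exceptions among the B-cell markers, Fcrla and Blnk, were higher in pDCs. Cd74, the invariant chain of MHC class II, stood at 10680.1 CPM in B cells and at 28085.7 in monocyte-derived dendritic cells. Igkc, the kappa light-chain constant region, stood at 10848 CPM, Ighg2c at 7859, Ighg2b at 2523 and Igha at 2282. Genes of the germinal centre, the site of antibody maturation in lymph nodes and spleen, varied. B cells held the highest level of 4 of the 13, among them Bach2 (84.7 CPM), Mef2b (22.9 CPM) and Nuggc (12.5 CPM), while Bcl6, its main transcription factor, gave 37 UMIs over all B cells, Rgs13 gave 1 and Gcsam gave 3. The recombination genes Rag1 and Rag2 of developing B cells gave 0 UMIs.

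Markers of other cell types were read in B cells, with much of each sum from 1 gene. The 12 monocyte and macrophage markers summed to 471 to 3116 UMIs per 1000000 non-immunoglobulin UMIs per mouse, 58.2% of it Apoe, and 93.1% of B cells had at least 2 such UMIs. The 10 T-cell markers summed to 39.1 to 217, led by Cd28, and the 9 tumour and stromal markers to 242 to 567, of which Vim made 95.0% while Olig1, Col1a1, S100b and Ptprz1 were at 0. The part of free RNA or joined cells in these sums was not tested.

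The number of B cells differed widely between mice of 1 genotype. KO 1 to KO 4 had 8, 40, 41 and 273 B cells, which were 0.567%, 0.754%, 0.864% and 4.66% of their cells, and WT 1 to WT 3 had 96, 357 and 25, which were 3.27%, 8.02% and 0.634%. KO 4, WT 1 and WT 2 stood apart from the other 4 mice, with exact (Clopper-Pearson) 95% intervals of 4.14 to 5.23%, 2.66 to 3.98% and 7.24 to 8.86%, while the upper limits of the other 4 were 1.17% or lower; such intervals cover counting error only. The mean share was 1.71 ± 1.97% (SD, n = 4) in KO and 3.98 ± 3.75% (n = 3) in WT, a difference of -2.26 percentage points that was within the spread between mice (exact permutation test, two-sided, p = 0.343, smallest possible 0.0286). As a share of lymphoid cells (T, NK and B) the means were 2.55 ± 2.79% and 13.8 ± 10.5% (exact permutation p = 0.0571). A share does not tell fewer B cells from more of the other cells. Xist or Ddx3y in T cells marked KO 1, KO 2 and WT 3 as female and the other 4 mice as male; the females had 0.567 to 0.754% B cells and the males 0.864 to 8.02%, and the part of sex in these shares was not tested.

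**Figure D1:**
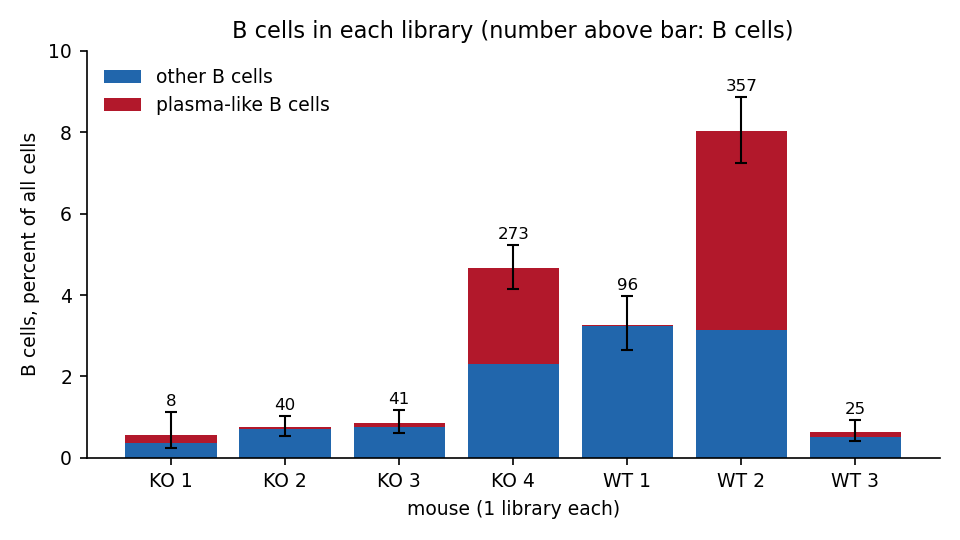
B cells as a percent of all cells in each of the 7 libraries, stacked as plasma-like and other B cells, with exact 95% intervals of the total (counting error only) and the number of B cells above each bar. KO 4 (4.66%), WT 1 (3.27%) and WT 2 (8.02%) stand above the other 4 mice, and plasma-like cells are 2.36% of all cells in KO 4, 4.88% in WT 2 and 0.213% or less in the other 5 mice.

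The B cells fell into 2 ranges of immunoglobulin content. Plasma-like cells are those with at least 1 Jchain UMI and immunoglobulin genes at 10% or more of the UMIs of the cell, a range of a score and not a cell type; 372 of the 840 B cells (44.3%) met it. KO 1 to KO 4 had 3, 3, 5 and 138 plasma-like cells and WT 1 to WT 3 had 1, 217 and 5, so 355 of the 372 came from KO 4 and WT 2. As a share of B cells this was 50.5% in KO 4, 60.8% in WT 2, 37.5% of 8 cells in KO 1, and 1.04 to 20% in the other 4 mice. The share did not separate the genotypes, at 23.4 ± 23.6% in KO and 27.3 ± 30.5% in WT (n = 3 each, exact permutation p = 0.8, where 0.1 is the smallest possible). Immunoglobulin made 5 to 20% of the UMIs of 105 cells, around the threshold, 42 of them in KO 4 and 58 in WT 2.

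Plasma-like cells held far more RNA. Their median was 17229 UMIs and 2727 genes per cell against 2884 UMIs and 1301 genes in the other B cells. All values of this paragraph pool cells over mice, and most plasma-like cells came from KO 4 (138) and WT 2 (217). Immunoglobulin genes took a median 35.8% of their UMIs against 1.22%, ribosomal genes 10.4% against 23.1% and mitochondrial genes 0.784% against 1.87%. To compare shares at 1 total, cells were thinned to 1500 UMIs, immunoglobulin included, which leaves fewer UMIs for other genes in plasma-like cells, and shallower ones were left out, 0 of the plasma-like cells, 20 of the other B cells and 107 of 786 naive CD4+ T cells. Mzb1, a chaperone of antibody assembly, was then seen in 93.5% of plasma-like cells, 34.6% of other B cells and 2.06% of naive CD4+ T cells, a class that should lack it (98.7%, 44.0% and 2.80% unthinned). Ms4a1 was seen in 3.76%, 33.3% and 0.147%, and Cd79a in 40.6%, 85.3% and 0.884%. The unthinned shares for Ms4a1 were 26.1% and 59.2%, and for Cd79a 96.0% and 96.4%, so nearly every cell of both ranges carried the receptor chain.

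**Figure D2:**
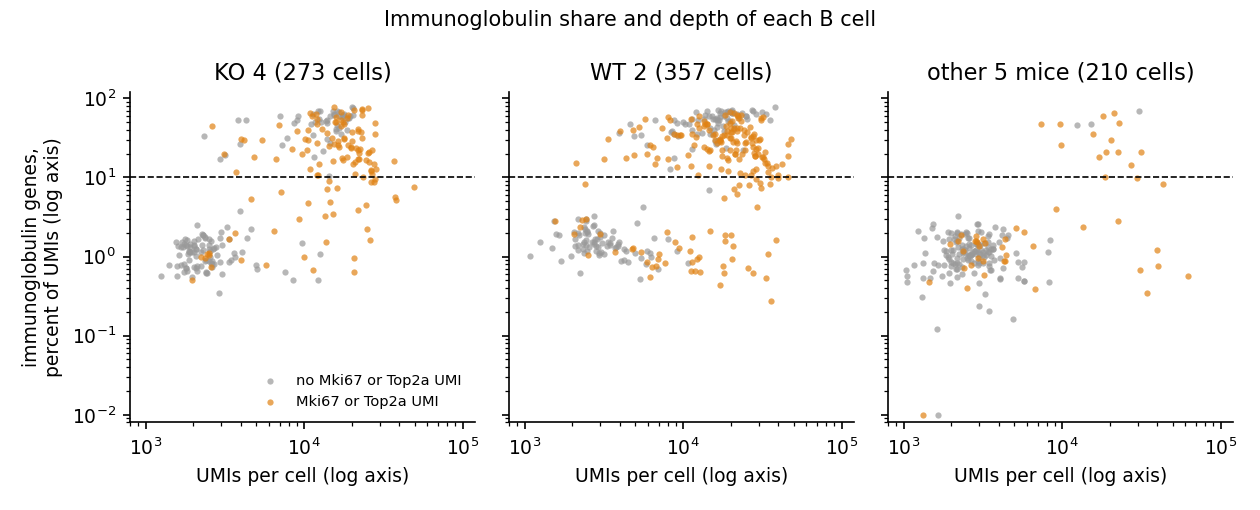
Percent of UMIs from immunoglobulin genes against UMIs per cell for every B cell (both axes logarithmic, 3 panels of mice), coloured by whether the cell had an Mki67 or Top2a UMI; the dashed line is at 10%, and cells under 0.01% are drawn at 0.01%. KO 4 and WT 2 have a dense group of cells above the line at about the plasma-like median of 17229 UMIs, and the other 5 mice have 17 plasma-like cells between them.

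Nearly all plasma-like cells had switched class. All 372 had at least 10 heavy-chain UMIs (median 391), and in 365 (98.1%) IgG, IgA and IgE together outnumbered IgM and IgD together. The leading class was IgG2c in 221 cells, IgG2b in 108, IgA in 35, IgM or IgD in 7 and IgG3 in 1, with IgG1 and IgE leading in 0. KO 4 had 68 IgG2c, 63 IgG2b and 6 IgA cells, and WT 2 had 146 IgG2c, 43 IgG2b and 22 IgA cells. The balance of IgG2b to IgG2c thus differed between these 2 mice, whereas in KO 1 and KO 2 IgA led in 2 of 3 cells each.

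Switching among the other B cells was read from a stricter count, since T cells, which should lack them, also had heavy-chain UMIs. In KO 4 and WT 2, 63.7% and 67.4% of T cells had at least 1 heavy-chain UMI, against 11.7 to 24.1% in the other 5 mice, and immunoglobulin made 0.245% and 0.221% of T-cell UMIs against 0.0901% or less; the part of free RNA, joined cells or shared barcodes was not tested. At least 10 heavy-chain UMIs were found in only 24 of 13692 T cells, and this limit, chosen after seeing the data, kept 78 of the 468 other B cells, 55 of them switched (70.5%). These are the cells richest in antibody RNA: with at least 1 heavy-chain UMI, 151 of 421 were switched (35.9%), 1 of 83 in WT 1 and 1 of 15 in WT 3. At the stricter limit these were 26 of 29 cells in KO 4, 21 of 35 in WT 2, 5 of 5 in KO 3, 2 of 4 in KO 2 and 1 of 5 in WT 1.

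**Figure D3:**
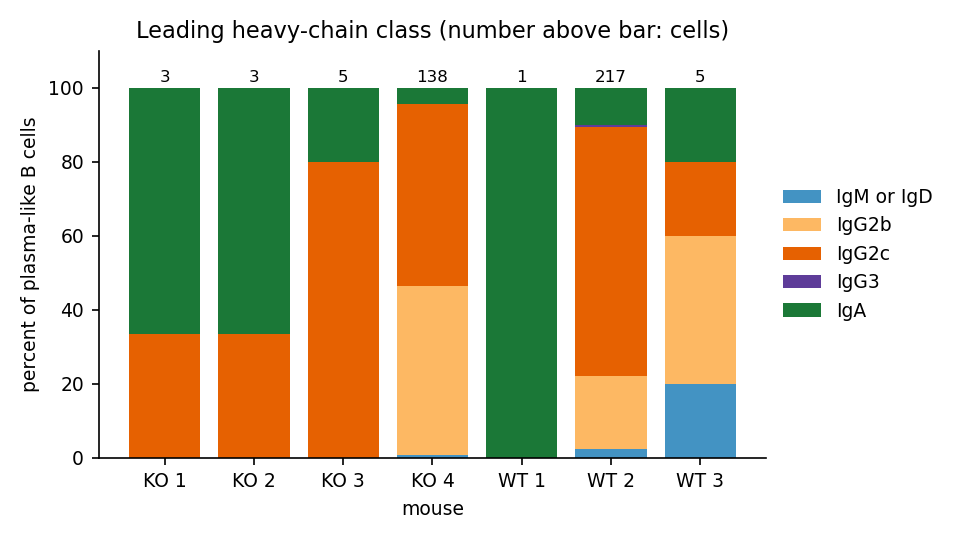
Leading heavy-chain class of the plasma-like B cells of each mouse, as a percent of those cells, whose number is above each bar. IgG2c and IgG2b make most of KO 4 (138 cells) and WT 2 (217 cells), and the other mice hold 1 to 5 cells each.

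In the mice with 5 or fewer plasma-like cells the leading variable genes held 32.2 to 63.4% of the variable UMIs of their chain. Ighv10-3 held 63.4% of the heavy variable UMIs of KO 1, Ighv8-8 held 55.7% in WT 3 and Ighv3-6 held 45.2% in KO 3, and Ighv3-8 held 39.4% in WT 1 and Ighv1-80 36.6% in KO 2. The leading kappa genes held 57.6% in KO 1, 56.2% in WT 1 (Igkv17-121), 36.8% in WT 3, 34.0% in KO 2 and 32.2% in KO 3. In KO 4 the leading genes were Ighv1-59 (12.7%) and Igkv3-7 (26.6%), and in WT 2 Ighv1-81 (14.5%) and Igkv1-117 (11.2%). Heavy variable UMIs reached the halfway mark with 6 genes in KO 4 and 6 in WT 2, and kappa UMIs with 4 and 8. The leading heavy gene had at least 10 UMIs in 41 cells of KO 4 and 28 of WT 2, but in 1 to 3 cells in the other 5 mice, so there its share rests on those few cells.

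Plasma-like cells were compared with the other B cells of the same mouse in the 4 mice with at least 5 cells of each (KO 3, KO 4, WT 2 and WT 3), with immunoglobulin genes and Jchain, which chose the cells, left out. Values below are UMIs per 1000000 non-immunoglobulin UMIs, in that order of mice, and KO 3 and WT 3 rest on 5 plasma-like cells each. By edgeR's quasi-likelihood test at an adjusted p under 0.05, 2060 of 7823 genes changed (26.3%), 1079 of them higher in plasma-like cells (13.8%) and 981 lower (12.5%). The count was 578 without KO 4, 397 without WT 2, 1183 among cycling cells alone and 1099 by DESeq2. Of the 17 plasma-cell genes 15 were tested and 14 rose, with a median log2 difference of 2.74 against -0.03 over all genes tested. Pou2af1 did not pass (log2 0.56, adjusted p 0.0685), Tnfrsf17 was too low to test, and Jchain was part of the rule.

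The factors that drive secretion were higher in every mouse. Plasma-cell genes are close to the antibody RNA rule that chose the cells, so their values and p-values are a description. Xbp1, the transcription factor of the unfolded protein response, stood at 1974, 2198, 2723 and 1419 in plasma-like cells and at 153, 342, 355 and 19.1 in the other B cells, so the ranges did not overlap (log2 3.30 ± 0.25 SE, edgeR adjusted p 3.77e-22). Prdm1, the repressor Blimp-1, stood at 103, 113, 74.1 and 144 against 16.7, 41.2, 26.5 and 0. It was higher in each mouse and the ranges did not overlap (log2 1.74 ± 0.27, edgeR adjusted p 2.89e-08). Irf4 rose least of these factors (log2 1.19 ± 0.23), from 195, 126, 145 and 115 in the other B cells to 605, 258, 302 and 144, so it was higher in every mouse while the ranges overlapped. Sdc1, the plasma-cell surface proteoglycan CD138, stood at 194, 198, 189 and 82.2 against 2.79, 11.2, 6.19 and 0 and had the largest change of the list (log2 4.76 ± 0.32).

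The machinery that folds, cuts and disposes of secreted proteins rose with them. Mzb1 stood at 5157, 7869.9, 8420.5 and 4729 against 1079.5, 1649.5, 1503 and 163 (log2 2.74 ± 0.41, edgeR adjusted p 0.00325), with 12.2% of its UMIs in values that were not whole. Fkbp11, a proline isomerase of the endoplasmic reticulum, rose by log2 4.10 ± 0.29 and Sec11c, a subunit of the signal peptidase, by 2.30 ± 0.23. Derl3 and Edem2, which send misfolded proteins to degradation, rose by 3.06 ± 0.28 and 3.00 ± 0.28. Creld2, an endoplasmic reticulum protein made under folding stress, stood at 878, 1493, 1290.4 and 1336 against 78.1, 201, 218 and 0 (log2 3.20 ± 0.28). Txndc5, a disulfide isomerase, rose by 2.05 ± 0.25 and Ell2, an elongation factor used for secreted heavy-chain RNA, by 1.90 ± 0.25.

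Promoters of the whole plasma-cell list, with members that did not pass, were searched on both strands for the binding letters of the factors that answer folding stress (RefSeq, GRCm38.p6, 250 bases before to 50 after each start). Shares of all promoters count single promoters, while list counts are genes with a match in any of their promoters. The endoplasmic reticulum stress element, CCAAT, then 9 bases of any kind, then CCACG, was in 39 of all 32851 promoters (0.119%) and in 2 of the 15 plasma-cell genes with a promoter in the table, Creld2 and Derl3. TGACGTGG, read by Xbp1 and Atf6, was in 0.676% of all promoters and in 2 of the 15, Txndc5 and Pou2af1, of which Pou2af1 did not pass in plasma-like cells. The octamer ATGCAAAT of immunoglobulin promoters, read by the factors that Pou2af1 assists, was in 1.74% of all and in 1 of 10 leading B-cell genes with a promoter, Vpreb3. The octamer was also in Blnk, 1 of 10 B-cell markers with a promoter, and in 0 of 15 plasma-cell genes and 0 of 7 follicular genes. The matches of Creld2, Derl3, Txndc5 and Vpreb3, chosen to show each motif, are printed with 20 bases on each side and the motif in capitals, on the gene's strand; Creld2, Derl3 and Vpreb3 carry it on the opposite strand, and none overlaps another of these motifs. They begin 126, 156, 138 and 45 bases before the start, and a match is a description of the letters only.
Creld2 (chr15:88819500-88819558, + strand): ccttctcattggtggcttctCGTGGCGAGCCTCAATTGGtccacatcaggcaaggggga
Derl3 (chr10:75893222-75893280, + strand): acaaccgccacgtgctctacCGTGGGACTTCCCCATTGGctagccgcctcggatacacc
Txndc5 (chr13:38528025-38528072, − strand): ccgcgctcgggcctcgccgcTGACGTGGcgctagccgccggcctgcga
Vpreb3 (chr10:75948235-75948282, + strand): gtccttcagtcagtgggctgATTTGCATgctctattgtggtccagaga

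Beyond the plasma-cell list, the largest rises included Ly6c2, a surface protein of monocytes and plasma cells, at 1859.7, 5636, 11254 and 5654 against 27.9, 294, 472 and 57.4 (log2 5.03 ± 0.24). Prg2, the eosinophil major basic protein, rose by 4.86 ± 0.32, Cpeb3, an mRNA-binding protein, by 4.94 ± 0.51 and Hid1, a protein of secretory granule traffic, by 4.22 ± 0.36. Cacna1h, a calcium channel, had 122 UMIs against 3 (ratio 23.9, 95% counting interval 7.99 to 118), Gpnmb, a membrane glycoprotein, 97 against 3, Eef1akmt3, a methyltransferase, 85 against 2, and Gm16350 114 against 3. Slpi, a secreted protease inhibitor, had the largest difference, at 582, 5531, 4200.2 and 29646 against 2.79, 77.5, 301 and 0 (log2 6.01 ± 1.21, edgeR adjusted p 0.0444). All 4 mice shared its direction, but the adjusted p was 0.185 without KO 3, 0.242 without KO 4 and 0.0611 without WT 3. Of 12 other settings 5 lost the call, these among them, while the log2 difference stayed at 5.03 to 7.31.

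Receptors and a cytokine also separated the ranges. Cxcr3, a receptor for interferon-induced chemokines, stood at 285, 293, 355 and 514 against 109, 97.5, 148 and 0 (log2 1.65 ± 0.25, edgeR adjusted p 1.23e-07). Thinned to 1500 UMIs, it was seen in 27.2% of plasma-like cells, 6.25% of other B cells and 17.1% of naive CD4+ T cells (79.0%, 16.2% and 26.3% unthinned). Il10, an inhibitory cytokine, stood at 183, 26.0, 24.0 and 61.7 against 5.58, 5.00, 5.31 and 0 (log2 3.05 ± 0.45), and it was the only 1 of the 11 cytokine genes tested that rose, while Lta, Ccl3, Tgfb1 and Ltb fell. Cd28, a co-stimulatory receptor of T cells also made by plasma cells, rose by 2.51 ± 0.29; of the 10 T-cell markers 5 were tested and the other 4, Cd3d, Cd3e, Cd3g and Cd8a, did not pass. Of the 8 NK-cell markers 1 was tested, Prf1, the pore-forming protein of cytotoxic granules, and it rose: it stood at 22.8, 36.0, 31.5 and 0 in plasma-like cells against 5.58, 16.2, 8.85 and 0 in the others (log2 1.61 ± 0.38, edgeR adjusted p 0.000388). Without thinning, 8.33% of plasma-like cells and 0.641% of other B cells had 2 or more UMIs of that list, and Prf1 gave 81.0% of its UMIs in plasma-like cells, at median depths of 17229 and 2884 UMIs; the part of NK-cell RNA was not tested. Of the receptors for the survival factors BAFF and APRIL, Tnfrsf13b rose (log2 0.86 ± 0.22) and Tnfrsf13c fell (log2 -0.57 ± 0.22).

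The resting and follicular programme was lower. All 11 tested of the 12 follicular genes fell, with a median log2 difference of -4.87 (the remaining member, Ighd, is an immunoglobulin gene). Among cycling cells alone 8 were tested, of which 7 fell and 1 rose (median log2 -3.73 against -0.002 over all genes tested). Fcer2a, the IgE receptor CD23, had 0 UMIs in plasma-like cells and 131 in the other B cells, at least 74.3-fold lower against a floor of 3 UMIs over the group. Cxcr5, the receptor that leads B cells into follicles, had 1 UMI against 129, a ratio of 219 (95% counting interval 38.7 to 8731). Ccr7, which guides cells into lymph nodes, stood at 0, 9.18, 14.6 and 0 against 441, 360.0, 309 and 1149 (log2 -4.84 ± 0.31). Fcmr fell by 6.29 ± 0.39 on the log2 scale, Btla, an inhibitory receptor, by 2.85 ± 0.31, and Klf2, a factor of resting lymphocytes, by 0.97 ± 0.25.

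Factors that keep B-cell identity fell with it. Pax5 had 2 UMIs in plasma-like cells and 115 in the others (ratio 97.8, 95% counting interval 26.5 to 817), and Bach2, which holds back Prdm1, stood at 0, 0.765, 2.36 and 0 against 61.3, 71.3, 57.5 and 268 (log2 -5.01 ± 0.42). Ebf1 fell by 3.65 ± 0.26 on the log2 scale, Spib by 4.35 ± 0.41 and Irf8 by 1.84 ± 0.24. Of the 18 transcription factors listed, 10 fell and Irf4 rose. Of 17 genes of receptor signalling, 10 fell and 1, Cd81, rose. Cd79a fell less, from 971 to 1991 in the other B cells to 411 to 719.6 (log2 -0.96 ± 0.22), and it did not pass among cycling cells alone (adjusted p 0.679). Cd79b did not pass (log2 -0.46 ± 0.26, edgeR adjusted p 0.204).

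Antigen presentation fell in part. Of 13 MHC class II genes 8 fell and 0 rose. Ciita, the master regulator of the class II genes, stood at 0, 0.765, 5.91 and 20.6 against 55.8, 53.8, 66.4 and 115 (log2 -3.77 ± 0.38), and H2-Oa, part of a peptide-loading inhibitor, fell by 5.38 ± 0.37. H2-Aa, a chain of the class II molecule itself, fell by 1.60 ± 0.20, and Cd74 fell by 0.41 ± 0.16 and remained at 7771 to 13303. H2-Ab1, the partner chain of H2-Aa, did not pass (log2 -0.40 ± 0.20, edgeR adjusted p 0.129). Of 20 tested activation genes 13 fell, among them the co-stimulatory receptor Cd40 (log2 -2.82 ± 0.36), Cd83 and Cd86, and Irf4 rose.

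Serpinb1a, a protease inhibitor, had 0 UMIs against 87 (at least 49.3-fold lower). Hs3st1, an enzyme that sulfates heparan chains, had 1 UMI against 98, Ephx1, an epoxide hydrolase, 1 against 63, and Cr2, the complement receptor CD21, 1 against 45. Ccr6, a chemokine receptor, fell by 5.48 ± 0.43 and B3gnt5, a glycolipid enzyme, by 5.39 ± 0.51. In this fit 0 of the 7 tested macrophage markers rose in plasma-like cells and Apoe fell (log2 -1.74 ± 0.25). The whole list summed to 137 to 728 in plasma-like cells of the mice with at least 5 of them and to 552 to 3848 in the other B cells of all mice. Among cycling cells alone, the 7 tested macrophage markers had a median log2 difference of 0.77 against -0.002 over all genes tested. Of these 7, 2 were called higher and 0 lower, a count given without the share called over all genes of that fit.

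Sialic-acid genes moved in both directions. Siglecs bind sialic acid, and B cells use Cd22 and Siglecg as brakes on the antigen receptor. Cd22 stood at 0, 3.06, 1.58 and 0 in plasma-like cells and at 53.0, 37.5, 85.8 and 57.4 in the others (log2 -4.84 ± 0.44, edgeR adjusted p 1.3e-18). Siglecg fell by 1.73 ± 0.28 on the log2 scale, but its adjusted p was 0.0747 among cycling cells alone. Gne, Nans, Cmas and Cmah, enzymes that make, activate or modify sialic acid, rose by 1.77 ± 0.28, 1.52 ± 0.23, 0.97 ± 0.26 and 0.95 ± 0.22. St6gal1, which attaches the sialic acid that Cd22 binds, did not pass (log2 0.40 ± 0.22, edgeR adjusted p 0.178).

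**Figure D4:**
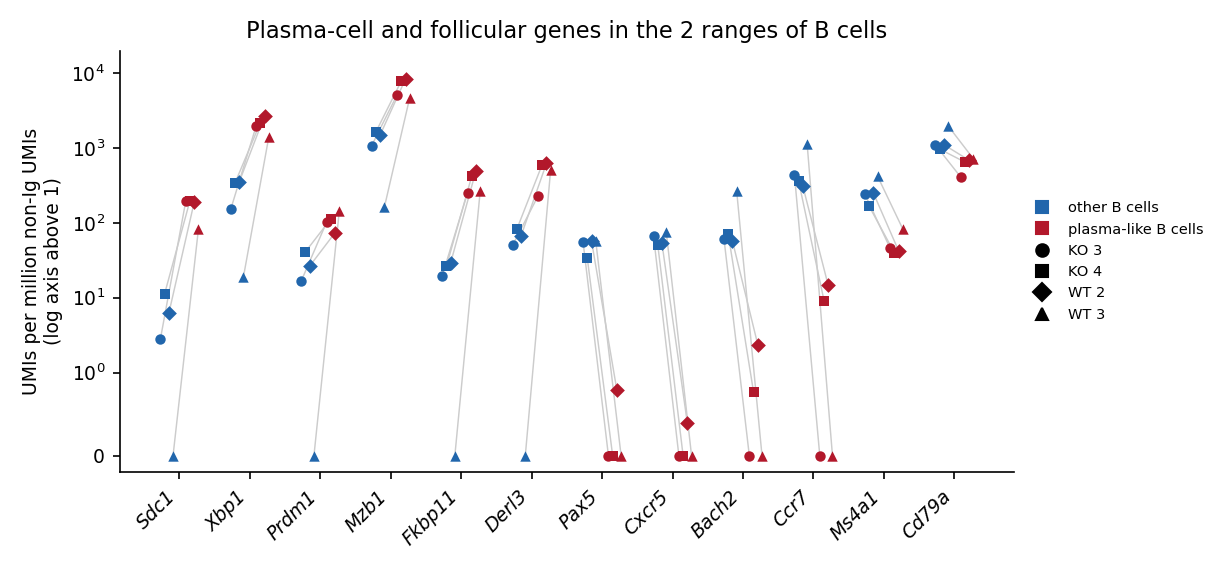
UMIs per 1000000 non-immunoglobulin UMIs of 12 genes in other (blue) and plasma-like (red) B cells of KO 3, KO 4, WT 2 and WT 3, each mouse a symbol and joined by a line (logarithmic above 1). The first 6 genes, such as Xbp1, are higher in plasma-like cells of every mouse. Pax5, Cxcr5, Bach2 and Ccr7 are at 0 in plasma-like cells of KO 3 and WT 3, which have 5 such cells each, so a 0 there rests on few UMIs.

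Many B cells carried RNA of cell-division genes. At least 1 UMI of Mki67 or Top2a, both made in dividing cells, was found in 372 of 840 B cells (44.3%), and the deposited phases put 172 cells in S and 151 in G2M. The share was 25%, 25%, 31.7% and 45.8% in KO 1 to KO 4 and 17.7%, 54.6% and 40% in WT 1 to WT 3, highest in KO 4 and WT 2, the mice with the most UMIs per B cell (median 10536 and 14095 against 2326 to 6242 in the others) and the most plasma-like cells. Their T cells were not deeper (median 4526 and 4055 UMIs against 3744 to 7169). Thinned to 1500 UMIs it was 22.7% in all B cells and 9.57% in naive CD4+ T cells (unthinned 17.2%), with 22.1% in KO 4, 29.7% in WT 2 and 0 to 19.0% in the other 5 mice. The genotypes did not separate, at 34.2 ± 10.6% in KO and 37.4 ± 18.6% in WT (n = 3 each, exact permutation p = 0.8, smallest possible 0.1).

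Plasma-like cells carried the larger share over all mice together. Of the 372 plasma-like cells 239 (64.2%) had such a UMI, against 133 of 468 other B cells (28.4%), and after thinning 29.6% against 17.0%, over cells pooled from mice of unequal number. In KO 4 the thinned shares were 25.4% and 18.8% and in WT 2 32.3% and 25.7%, the same order in both and a smaller gap than in the pooled cells. The other 5 mice had 1 to 5 plasma-like cells each: these held 0 cycling cells after thinning in KO 1, KO 2 and WT 1, where the other B cells stood at 0%, 6.90% and 8.602%, and 4 of 5 in KO 3 and 1 of 5 in WT 3. The difference was not tested. Immunoglobulin was a median 28.8% of UMIs in cycling plasma-like cells and 52.7% in the 133 others, of which 129 were placed in G1. The UMI rule and the deposited phases did not choose the same cells: of the 372 cycling cells 130 were placed in G1, 83 of them plasma-like, and of the 468 others 61 were placed in S and 20 in G2M. Mki67 itself stood higher in plasma-like cells (log2 1.37 ± 0.27, edgeR adjusted p 3.67e-05, 0.0791 without WT 2 and 0.158 without WT 3), whereas Top2a did not pass (log2 0.46 ± 0.24, edgeR adjusted p 0.153). Of the 47 G2M genes tested 15 rose and 0 fell (median log2 0.49), and of the 45 S-phase genes 2 rose and 1 fell (median log2 -0.01), where 13.8% of all genes tested rose.

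Cycling B cells were then compared with the other B cells of the same mouse in KO 2, KO 3, KO 4, WT 1 and WT 2, with values on the same scale and in that order. By edgeR's quasi-likelihood test 1502 of 5391 genes changed (27.9%), 806 higher (15%) and 696 lower (12.9%), 595 without KO 4 and 608 without WT 2. S and G2M genes are close to the rule that chose the cells: 26 of 29 and 37 of 38 tested were higher, as a description. Outside those lists Pclaf, a partner of the replication clamp, was among the largest rises and stood at 283, 421, 357, 313 and 440.5 against 0, 4.79, 7.68, 0 and 4.06, and Tk1, thymidine kinase, rose by log2 4.39 ± 0.37. Esco2, which acetylates cohesin, had 212 UMIs against 0 (at least 26.8-fold higher), Plk1, a mitotic kinase, 311 against 1, Psmc3ip, a recombination factor, 243 against 1, and Kif22, Mybl2 and Ncaph each stood at 3 UMIs in the other cells. Gm20628 rose by 5.04 ± 0.42, and Hist1h2ap, a histone gene of a near-identical family with 98.2% of its UMIs in values that were not whole, is uncertain.

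Cycling B cells had less of the resting programme. Of 12 follicular genes 9 fell: Klf2 stood at 329, 149, 324, 1028 and 236 against 1365, 1848, 896, 2265 and 659 (log2 -1.94 ± 0.33), and Cxcr5 at 13.2, 29.3, 4.60, 33.5 and 8.91 against 46.0, 134, 58.0, 121 and 41.8 (log2 -2.56 ± 0.30). Of the 372 cycling cells 239 were plasma-like, against 133 of the 468 others. With plasma-like cells left out, a fit over 3 mice, 9 of the 12 follicular genes fell. Their median log2 difference was -2.46 against -0.08 over all genes tested, and -2.31 with plasma-like cells kept. Cxcr5 still fell, by 2.55 (edgeR adjusted p 0.00215), and Cd79a by 1.59 (1.19 ± 0.22 with them). Id3, an inhibitor of B-cell transcription factors, stood at 39.5, 20.5, 11.8, 212 and 23.2 against 383, 364, 123, 674 and 103 (log2 -2.80 ± 0.33). Zfp608, Cr2, Marchf1 (a ubiquitin ligase that lowers surface MHC class II), Ifitm1, Zfp318 (needed for IgD), Pgap1, B3gnt5, Ifi214 and Lmo2 made up the rest of the 10 largest falls, by 2.69 to 4.40 on the log2 scale. Zfp608 did not pass when the deposited phases chose the cells (adjusted p 0.104).

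Of 16 plasma-cell genes tested in the cycling cells, Ell2 and Pou2af1 rose (log2 1.09 ± 0.36 and 0.73 ± 0.23) and Xbp1 did not pass (log2 1.45 ± 1.34, edgeR adjusted p 0.486). With plasma-like cells left out 10 of 13 rose (median log2 1.89 against -0.08 over all genes tested). Outside the plasma-like range, cycling cells had a median of 9975 UMIs against 2555 in the others, over all mice. In a separate fit plasma-like cells were kept and the other cells were limited to the UMI range of the cycling cells. There 0 of 16 rose (median log2 0.61), beside 2 of 16 without that limit (median log2 0.77). Leaving out plasma-like cells and limiting depth were not joined in 1 fit. The part of depth was not tested. Of 6 germinal centre genes tested 2 rose, Ezh2, a histone methyltransferase active in dividing B cells (log2 2.59 ± 0.31), and Fas, a death receptor (log2 1.26 ± 0.37), and Lmo2 and Bach2 fell. Cd22 and Siglecg fell by 1.57 ± 0.27 and 1.75 ± 0.26 and Nans rose by 1.06 ± 0.29. Of 15 genes induced by tissue dissociation 12 were lower in cycling cells, such as Jun (log2 -1.34 ± 0.21) and Hspa1a (log2 -1.83 ± 0.19, 82.4% of its UMIs in values that were not whole), and 5 of 7 macrophage markers were lower, such as Lyz2 (log2 -1.59 ± 0.34). With the other cells limited to the UMI range of the cycling cells 1532 genes were called, and the part of handling stress or free RNA in these differences was not tested.

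**Figure D5:**
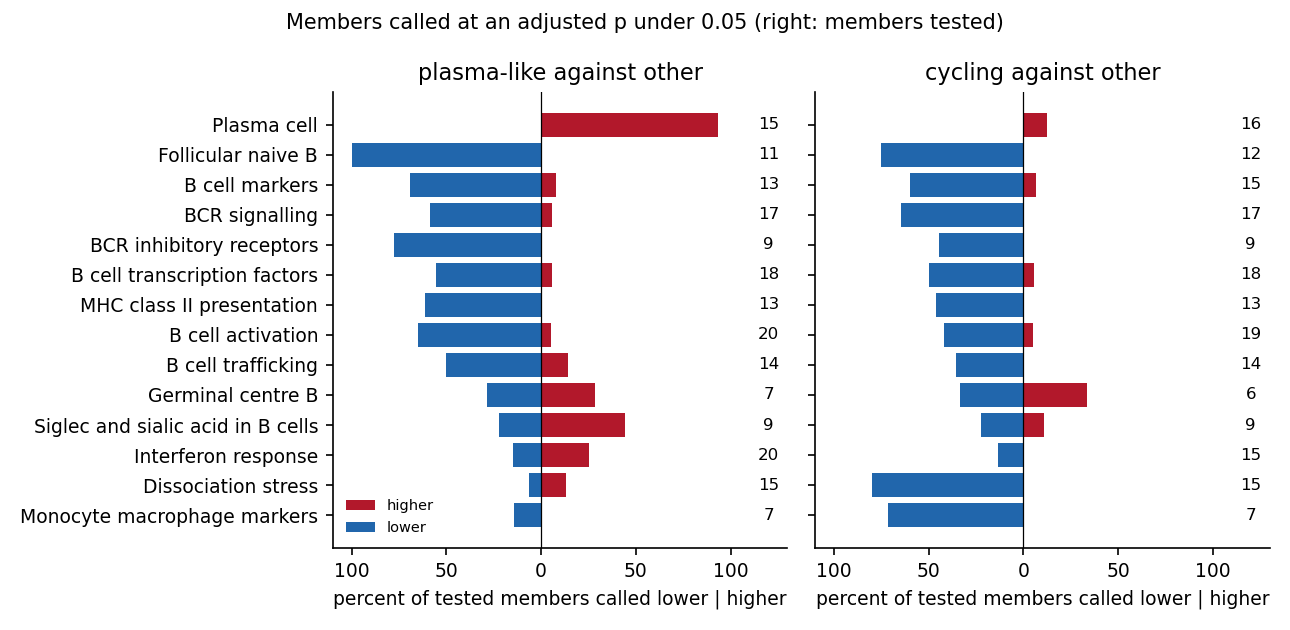
Percent of the tested members of 14 gene lists called higher (red) or lower (blue) at an adjusted p under 0.05 in plasma-like (left) and cycling (right) B cells against the other B cells, with the number tested at the right of each bar. Plasma-cell genes are higher on the left (14 of 15) and mostly not called on the right (2 of 16), follicular genes are lower in both (11 of 11 and 9 of 12), and dissociation genes are lower on the right (12 of 15).

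No gene passed the test of genotype in B cells. In the 6 mice with at least 20 B cells, 0 of 4648 genes passed an adjusted p of 0.05 by edgeR's quasi-likelihood test (0%), 44 had an unadjusted p under 0.05, and DESeq2 called 3, all lower in KO, among them the variable genes Igkv8-24 and Ighv1-55. KO and WT values did not overlap for 225 genes (4.84%). The genes of smallest p among all tested that were higher in KO were H2-T22 (a non-classical class I gene, log2 0.84), Rps3a2 (98.8% of its UMIs in values that were not whole), Syngr2 (a vesicle protein, 1.17), Grasp (a scaffold protein, 1.20) and Sms (spermine synthase, 1.42). Those lower in KO were Igkv8-24, Ighv1-55, Sfn (an adaptor protein, -1.53), Csf2rb (a shared cytokine receptor chain, -1.53) and Rhob (a small GTPase, -0.91). None passed the correction (smallest adjusted p 0.99986), and KO and WT values overlapped for Rps3a2 and Sfn. By list, all 12 follicular genes, all 15 genes induced by tissue dissociation and all 6 tested macrophage markers had lower fitted values in KO, with median log2 differences of -0.87, -0.73 and -0.87 against -0.01 over all genes tested, and 0 of them passed. WT 1 stood apart for several dissociation genes: Hspa1a was at 2702, 2088 and 1313 in KO 2 to KO 4 and at 8936, 1787 and 2783 in WT 1 to WT 3, and Dnajb1 at 1508, 1071 and 841 against 6541, 820.0 and 1368. The test against T cells below uses the B-cell sums of these same 6 mice, so it is not a second observation of them. There all 15 dissociation genes had values below 0 (median -0.74 against 0.03, 0 passed), whereas 9 of the 12 follicular genes had values above 0. The part of handling stress or of other cells' RNA in the genotype values was not tested.

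The B-cell genes differed widely between mice of 1 genotype. On the same scale, Ighm stood at 552, 255 and 413 in KO 2 to KO 4 and at 791, 605 and 1467 in WT 1 to WT 3 without overlap (log2 -1.24 ± 0.44, edgeR adjusted p 0.99986). Cd79a stood at 1629, 968 and 772 against 2433, 818 and 1378 (log2 -0.50 ± 0.47) and Ms4a1 at 319, 204 and 88.3 against 473, 107 and 258 (log2 -0.53 ± 0.66). Both were lowest in KO 4 and WT 2, the mice with the most plasma-like cells. Cd22 (log2 -0.13 ± 0.85), Siglecg (-0.18 ± 0.80), Cxcr5 (-0.58 ± 0.77), Mki67 (0.48 ± 0.79), Top2a (0.23 ± 0.59) and Jchain (0.06 ± 1.05) all had differences smaller than their errors. With plasma-like cells left out the count was again 0.

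Whether genotype acted differently in B cells and T cells was tested with a term for that difference. Of 12836 genes 5 passed (0.039%), 4 with a higher KO to WT ratio in B cells (0.0312%) and 1 with a lower one (0.00779%), all variable genes: Ighv1-58, Igkv4-57, Igkv4-57-1, Igkv8-19 and Igkv9-129. Most of their UMIs came from 1 or 2 mice each, and DESeq2 called 3 genes, none of these 5. T cells, which should lack these genes, had 0 to 64 UMIs of each per mouse. Those counts enter the term and in some mice were above the B-cell counts, such as 23 against 1 for Igkv8-19 in KO 4. The part of free RNA was not tested. Igkv4-57 had 12662 UMIs in B cells of KO 4 and 1 or 0 in those of the other 5 mice, Igkv8-19 had 1238 in WT 3 and 130 in WT 2, and Igkv9-129 had 3338 in KO 3 and 3165 in WT 2. With immunoglobulin genes left out 0 passed (248 at an unadjusted p under 0.05), and outside them Ass1, a urea-cycle enzyme, had the smallest adjusted p, 0.128 (log2 2.50).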

How the data were processed

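Single-cell RNA of 7 mice (4 KO, 3 WT) was read as 1 library each, and all mice carried tumours. The authors deposited a table of estimated counts (UMIs for 55491 genes in 28644 cells, not normalized), in which some values are not whole; STARsolo, STAR 2.7.10a, mm10 and FastQC 0.11.5 are named in the submitters' processing notes, and how the values that are not whole arose is not given in the sources used here. The authors' deposited cell table gives the count of detected genes, the mitochondrial and ribosomal percent, a cell-cycle phase, the annotation and 2 map coordinates, unitless scores of the authors' deposited cell map that were not used. No columns of other samples were found (0).

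UMIs were summed per mouse and cell range, rounded to whole numbers and tested with edgeR 4.0.16 (R 4.3.3; quasi-likelihood, robust, TMM, filterByExpr with a minimum count of 10 and total of 15, Benjamini-Hochberg over all genes tested), with 1 term per mouse where ranges of the same mouse were compared. DESeq2 1.42.0 was an alternative. Genotype fits used mice with at least 20 B cells, cycling fits mice with at least 10 cycling and 20 other cells, and shares were tested with exact permutation over mice. The replicate unit is the mouse. No doublet caller was run here. No cell was removed from fits, and cells under 1500 UMIs were left out of thinned shares only. Each fit was also run on sums simulated from a common mean profile with known changes of a fixed size. Differences between mice that many genes share were not modelled there, and the outcome is not given here.

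Other settings were left-out mice, RLE size factors, no filter, immunoglobulin genes left out, other cell ranges, sex, phases and the replicate number. Members and gene lists were chosen with earlier results of these data known. The plasma-like comparison and the limit of 10 heavy-chain UMIs were added after seeing the data. Named genes are the 10 largest changes in each direction among genes past an adjusted p of 0.05 with the same sign in every mouse (outside S and G2M lists for cycling), for genotype the 5 of smallest p in each direction, for levels the 15 largest ratios among genes over 50 CPM with 1 CPM added, up to 5 members of each list, and Siglece, Cd22, Siglecg, Cd79a, Ms4a1, Ighm, Mki67, Top2a, Jchain and Cxcr5; other members were chosen after their values were seen. Gene positions are from GENCODE M21 (GRCm38). Some list members are counted but not reported by name here.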

Additional observations from a re-analysis of the deposited data

Results flagged for a closer look

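KO 4 stood far above the other 3 KO mice in 4 of 5 measures looked at in the KO group. Chance alone sets apart about 1 group in 20, and the 4 measures are shares of the same cells, so they count as 1 observation. Its B cells were 4.66% of all cells, 6.73% of lymphoid cells and 7.14% of B and T cells, and its plasma-like cells were 2.36% of all cells. The KO mean of these shares therefore rests largely on that mouse.

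The KO to WT difference was not the same in B cells and T cells for 5 variable genes, by the edgeR test of that difference itself. T cells, which should lack these genes, had 0 to 64 UMIs of each per mouse, and these enter the term. The B-cell UMIs came mostly from 1 or 2 mice for each gene. The difference was 10.47 on the log2 scale for Ighv1-58, 13.04 for Igkv4-57, 11.22 for Igkv4-57-1, -12.71 for Igkv8-19 and 5.00 for Igkv9-129. Groups at or near 0 UMIs enter these fitted values, so they are not bounds or sizes of a change.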

How the results depend on the processing

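The KO minus WT share of B cells stayed negative in every setting run and passed no test, at -3.94 to -0.24 percentage points when each mouse was left out. The cycling share ranged from -13.1 to 5.31 and turned positive without KO 2 (1.30) and without WT 2 (5.31), and the plasma-like share ranged from -17.4 to 12.9 and turned positive without KO 2 (4.10), KO 3 (1.75) and WT 2 (12.9). For genotype, DESeq2 called 3 genes, no filter 14 and sex as a term 0 of 5583. For plasma-like cells, DESeq2 called 1099, of which 1082 were among the 2060, an immunoglobulin limit of 20% gave 900 of 2465 tested, cycling cells alone 1183, mice with at least 3 plasma-like cells 1065 of 2559, and left-out mice 397 to 2294. Cycling calls ran from 595 (without KO 4; 608 without WT 2) to 1637. For the B-cell against T-cell test, DESeq2 called 3, no filter 56, immunoglobulin genes left out 0, and left-out mice 4 to 195 (without WT 3 and WT 2; 11 without KO 2, 16 without KO 3, 32 without KO 4 and 31 without WT 1). The causes were not tested.

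Of the 264 gene values recomputed for plasma-like cells 252 kept direction and call, as did 315 of 321 for cycling, 243 of 275 for genotype and 30 of 41 for the 5 variable genes of the B-cell against T-cell test, where the other 11 lost the call. Settings in which a gene was not tested are not counted. Outside the genotype fit most of these genes were named for passing, and for genotype a kept call means no pass in either fit. These counts are therefore a description. Jchain in cycling cells was -0.79 by deposited phase, Top2a in plasma-like cells was -0.11 at the 20% limit, and Ighv1-55 by genotype was 2.96 with all 7 mice. With each mouse left out, the genotype difference of Cd22 ran from -0.92 to 0.66, Siglecg -0.71 to 0.60, Cd79a -0.88 to 0.082, Ms4a1 -1.0 to 0.25, Top2a -0.12 to 1.27, Jchain -0.78 to 1.18 and Cxcr5 -1.29 to 0.71. Cd22 was 0.022 by DESeq2 and 0.051 with all 7 mice, and Top2a -0.021 with all 7. Leaving out B cells with any T-cell or macrophage marker UMI, planned as 1 setting, left too few cells, since 93.1% had at least 2 macrophage UMIs, and leaving out by T-cell markers alone was not run.

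With the replicate number as a replicate block, only mice with a partner of the same number inform the difference. The share difference was -3.25 over KO 1 to KO 3 and WT 1 to WT 3, without KO 4 (exact sign-flip permutation over pairs, p = 0.5). The cycling share difference was -19.0, over KO 2 and KO 3 with WT 2 and WT 3. The genotype fit called 76 genes against 0 without the block, and its genotype term rests on those same few mice. There Cd22 was 1.58, Siglecg 1.11, Cd79a 0.26, Ms4a1 0.67, Mki67 -0.14, Top2a -0.26, Jchain -1.12 and Cxcr5 0.62. Deviations of same-numbered mice correlated at -0.448 (KO 2 and WT 2) and 0.025 (KO 3 and WT 3). No label says whether an equal number marks a shared litter or day, and so few pairs cannot tell. KO 1, with 8 B cells, and mice with 5 or fewer plasma-like cells limit what depth can show.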
